A study of Triticum aestivum with 6 samples.

Results

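The 100 most abundant transcripts of chromosome groups 2, 3, 4, 5 and 7 in the wheat endosperm were chosen by their mean FPKM over 6 libraries, out of 81198 genes of these groups and 127196 genes in the table. FPKM is the number of sequenced fragments of a gene, divided by its length and by the total of the library. Since the mean level over all libraries chose the members, their levels and ranks are given as a description, and tests are given only for differences between the 2 regions of the endosperm. Grains of the winter wheat cultivar Zhoumai36 were taken 25 days after anthesis and their endosperm was divided into an innermost region (IE) and a remaining region (RE), with 3 libraries each. IE was the centre of both lobes in the middle section of the grain, and RE was the rest of the endosperm with the aleurone, after the pericarp had been removed. The study grew its plants under low or high nitrogen, but the labels of these libraries give no nitrogen level. Its other libraries were not analysed here.

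Bread wheat carries the subgenomes A, B and D, so that most genes exist as up to 1 copy on each of the corresponding chromosomes of a group. During grain filling, the endosperm devotes much of its messenger RNA to storage proteins and to small cysteine-rich proteins of defence and texture. The main gliadin and glutenin loci lie on chromosome groups 1 and 6, and the members are the most abundant transcripts of the other groups. The starchy endosperm fills with starch and protein and then dies, whereas the aleurone around it stays alive in the mature grain. The sources used here give the function of 1 of the 100 members, and the others are therefore described by identifier, chromosome and level. An identifier states the chromosome, the subgenome and a number that rises along the chromosome.

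The libraries held between 13959933 and 21766392 fragments on genes, and the members were read with at least 315 and at most 396217 fragments per library (median 19302), so counting error adds little to the values of the members. All 100 members passed the filter of a mean of at least 0.5 FPKM, as did 51830 genes in all. IE replicate 2 stood apart from the other 2 IE libraries. Over the members, the median difference between IE replicates 1 and 3 was 0.215 on the log2 scale, against 0.632 and 0.768 between IE replicate 2 and these libraries. The RE libraries differed from each other by 0.231 to 0.273. No marker of the aleurone or of the starchy endosperm was tied to an identifier in the sources used here. Of the 2 globulin genes that the study names as higher in RE under high nitrogen, TraesCS4D01G171800 was the more abundant. It had 160, 403 and 186 FPKM in IE and 357, 372 and 547 FPKM in RE. The regions overlapped through IE replicate 2 alone, and IE replicates 1 and 3 were below every RE library. Replicates are separate samples by their labels, and the p-values measure the spread between them. In tissue pieces, fewer cells of a type and less RNA per cell cannot be told apart.

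The members took about 3 in 10 of all FPKM in every library. Their share was 31.7%, 36.6% and 30.9% in the 3 IE libraries and 30.8%, 32.3% and 31.3% in the 3 RE libraries. The regions overlapped, with 33.1% ± 3.07 in IE and 31.5% ± 0.741 in RE (SD, n = 3), a difference of 1.60 percentage points (two-sided exact permutation test, p = 0.6, smallest p possible 0.1). Without IE replicate 2, the difference was -0.156 percentage points. Counted in fragments, which are not divided by length, the members took between 23.4% and 29.4% of a library. The 100 most abundant genes of groups 1 and 6 took 30.4%, 20.2% and 31.9% in IE and 27.7%, 26.9% and 25.9% in RE. IE replicate 2 was thus the library in which the members took most and the genes of groups 1 and 6 took least. The ratio of both shares was 1.04, 1.81 and 0.969 in IE and 1.11, 1.20 and 1.21 in RE. On the log2 scale this ratio differed by 0.06 between IE and RE (exact permutation test, p = 1.0) and by -0.22 without IE replicate 2. The 100 most abundant genes that the genome assembly does not place on a chromosome took between 2.47% and 4.61% of a library. The log2 ratio of the member share to theirs differed by -0.10 between IE and RE (exact permutation test, p = 0.8) and by 0.19 without IE replicate 3. The 100 most abundant newly assembled genes took between 1.78% and 2.62%. The log2 ratio of the member share to the share of the newly assembled genes was 3.82, 3.88 and 3.56 in IE and 3.93, 4.12 and 4.14 in RE. It was lower in every IE than in every RE library, by -0.31 (exact permutation test over the libraries, p = 0.1, the smallest possible). Adjusted over the 3 ratios compared, this exact p was 0.3.

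**Figure D1:**
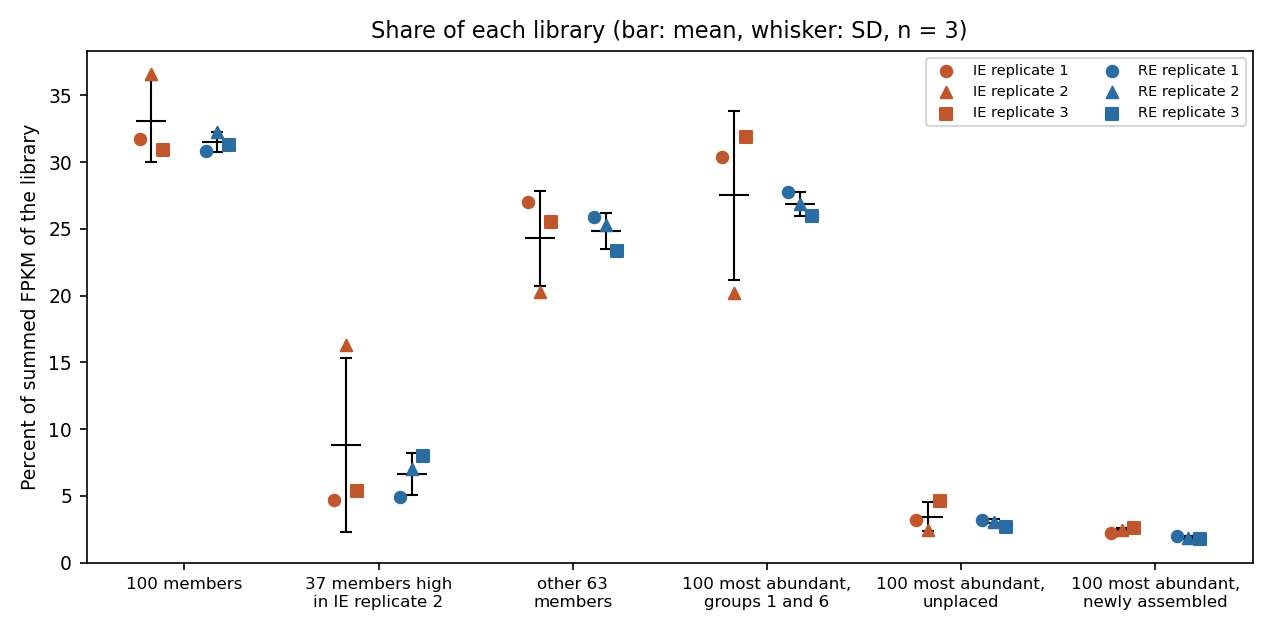
Percent of the summed FPKM of each library taken by the members, by both portions of the members defined by IE replicate 2, and by the 100 most abundant genes of 3 other classes. Points are libraries, bars are means and whiskers are the SD (n = 3); the 37 members high in IE replicate 2 took 16.3% there and between 4.71% and 7.98% in the other libraries.

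The members were steeply ranked. TraesCS5D01G004100 was the most abundant gene of the whole table, with 38178, 35833 and 35798 FPKM in IE and 35768, 33419 and 32635 FPKM in RE. Its neighbour TraesCS5D01G004300 ranked second, with 41111, 32846 and 40715 FPKM in IE and 36499, 27681 and 28015 FPKM in RE. Both genes together took between 5.36% and 6.79% of a library, and the 10 leading members between 12.5% and 16.6%. Then came TraesCS7B01G072000, with 20654, 17487 and 18404 FPKM in IE and 18257, 19867 and 16147 FPKM in RE. TraesCS2D01G531100 followed with 13963, 10293 and 16824 FPKM in IE and 14096, 13583 and 12420 FPKM in RE. These 4 members were among the 10 most abundant genes of the table, 26 members were among the first 50 and 57 among the first 100. The last member ranked 168. A mean above 10000 FPKM was reached by 10 members and a mean above 1000 FPKM by 75. When the genes of groups 2, 3, 4, 5 and 7 were ranked in each library alone, between 83 and 90 members were among its first 100, and 60 were so in all 6 libraries.

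**Figure D2:**
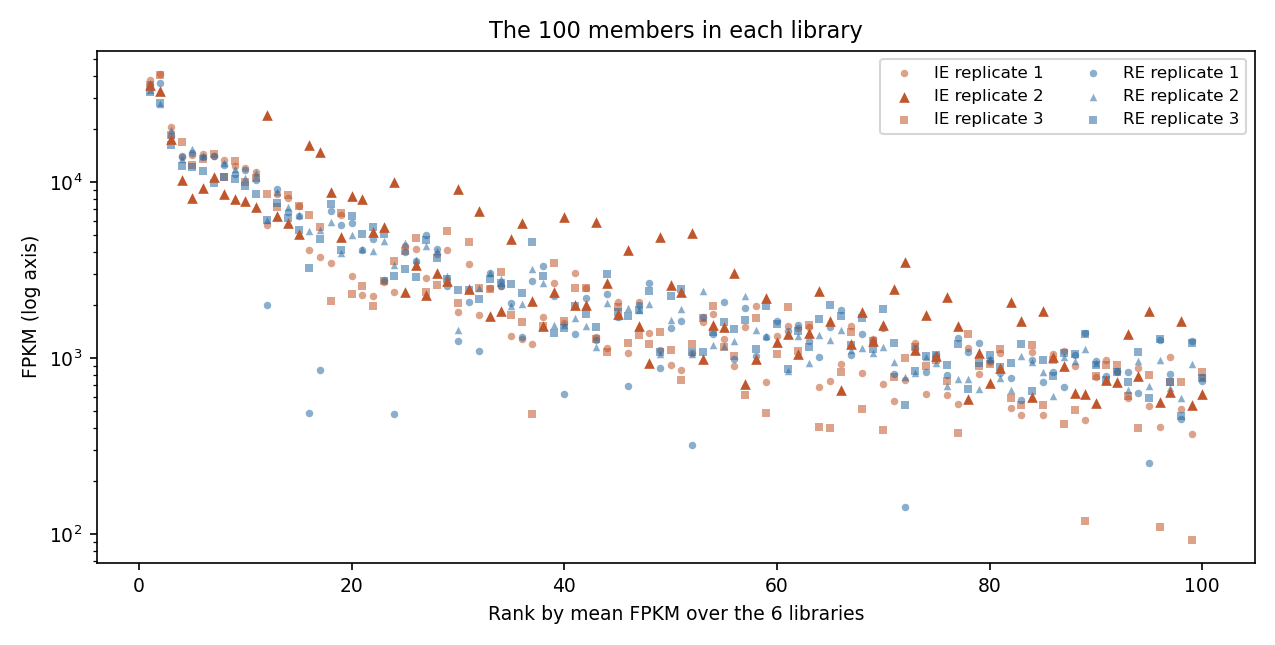
FPKM of the 100 members in each of the 6 libraries (log axis) against their rank by mean FPKM. The triangles of IE replicate 2 lie below both other IE libraries for 9 of the 10 leading members and above the other libraries for many members further down, and the level falls from 32635 FPKM or more for the first gene to a mean of 728 FPKM for the last.

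Near the limit of 100, the levels ran together. The last member, TraesCS7B01G303900, had a mean of 728 FPKM, and the first gene outside, TraesCS2B01G582800, had a mean of 727 FPKM. Members ranked 96 to 100 lay between 728 and 767 FPKM, and the 5 genes just outside between 705 and 727 FPKM. Ranking by the median over the libraries kept 95 of the 100 members.

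The members were spread unevenly over the chromosomes. Chromosomes 5D and 2D held 10 members each, 7D and 5A held 9 each, and 2A, 4B and 4D held 8 each. Chromosome 3A held 1 member, 3B held 3 and 3D held 4, so that group 3 had 8 members while it held 20.7% of the 28620 genes of these groups with a mean of at least 0.5 FPKM. Group 5 had 26 members (21.7% of those genes), and groups 2, 4 and 7 had 22 each (21.4%, 17.3% and 18.8%). By subgenome, 31 members were on A, 28 on B and 41 on D, whereas the expressed genes of the same groups were divided into 33.8%, 32.8% and 33.5%. The lead of D was larger by level. Subgenome D supplied 56.0% of the FPKM of the members, B 29.7% and A 14.3%, and 12 of the 20 most abundant members were on D, 7 on B and 1 on A. Chromosome 5D alone supplied 25.2%. The share of members on D was 50% for the 50 most abundant genes and 36.5% for the 200 most abundant.

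**Figure D3:**
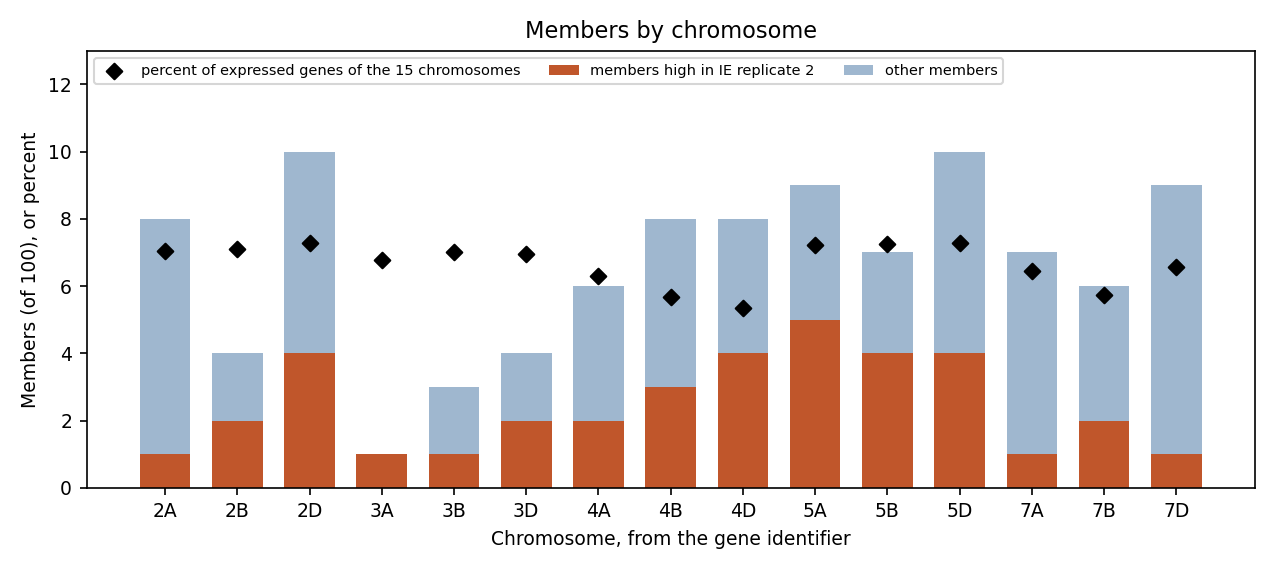
Number of members on each of the 15 chromosomes, divided into members high in IE replicate 2 and the others, beside the percent of expressed genes on that chromosome (diamonds; with 100 members, counts and percents share the axis). The 3 chromosomes of group 3 lie below their diamonds, as do 2B, 4A and 5B, and the other 9 chromosomes lie above.

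Of the members, 30 stood in 13 runs of neighbouring identifiers, meaning identifiers of 1 chromosome with numbers at most 1000 apart. The runs supplied 18.6% of all FPKM, and the 70 members outside runs supplied 13.7%. The largest share, 7.05% of all FPKM, belonged to TraesCS5D01G004000, TraesCS5D01G004100 and TraesCS5D01G004300 on 5D. Their summed level was 93297, 79301 and 90992 FPKM in IE and 86415, 71729 and 70484 FPKM in RE. The regions overlapped in this sum, although IE replicates 1 and 3 were above every RE library. The third gene of the run, TraesCS5D01G004000, had 14008, 10623 and 14480 FPKM in IE and 14148, 10630 and 9834 FPKM in RE. On 4B, the pair TraesCS4B01G328000 and TraesCS4B01G328100 summed to 28592, 17415 and 26120 FPKM in IE and 28404, 29564 and 23629 FPKM in RE. On 3D, the pair TraesCS3D01G095700 and TraesCS3D01G096000 summed to 21867, 14929 and 17903 FPKM in IE and 21742, 21719 and 18266 FPKM in RE. In both pairs, IE replicate 2 was the lowest of the 6 libraries. The run of 4 on 7D and the run of 3 on 4A are described with the members that were lower in IE. Neighbours and copies on other subgenomes can share reads, and how such reads were assigned is not given in the sources used here, so the division of fragments within a run or between copies is uncertain.

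The members were short. Their median length, recovered from the steps of the FPKM values, was 641 bp (range 207 to 2182 bp), and 83 of them were under 1000 bp. The 28620 expressed genes of the same groups had a median of 1209 bp, with 37.4% under 1000 bp. Since FPKM divides by length, the ranking favours short genes, and of the 100 genes with most fragments, 74 were members. In 11 sets, which were looked for after the values had been seen, members on different subgenomes of a group had the same length to the base pair. These sets held 24 members. TraesCS7A01G238600, TraesCS7B01G103600 and TraesCS7D01G199700 were 264 bp long, and TraesCS7A01G548100, TraesCS7B01G471400 and TraesCS7D01G534700 were 801 bp long. An equal length does not show that the genes are copies of each other, and their sequences were not compared. Within all 11 sets the members were on the same side of the 2-fold limit in IE replicate 2 that is described next, with 5 sets above it and 6 sets not.

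IE replicate 2 divided the members. In 37 of the 100, its FPKM was at least 2-fold above both other IE libraries, against 13% of all 51830 genes tested. In 44 members it was below both, and in 19 it was neither. This limit was chosen after the values had been seen. The 37 members took 16.3% of IE replicate 2, 4.71% and 5.37% of IE replicates 1 and 3, and 4.91%, 7.02% and 7.98% of the RE libraries. The other 63 members took 20.3% of IE replicate 2 and between 23.3% and 27.0% of the other libraries. The fold over the higher of the other IE libraries ran from 2.01 to 4.52 (median 2.81) in the 37. Among the 100 genes with the highest mean in RE alone, 93 of which were members, 37 genes met the limit.

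The highest of the 37 was TraesCS5B01G146000, with 5739, 24203 and 8608 FPKM in IE and 1994, 6071 and 6097 FPKM in RE. TraesCS4D01G142000 had 4093, 16215 and 6521 FPKM in IE and 487, 5280 and 3240 FPKM in RE. TraesCS4B01G393300 had 3741, 14881 and 5575 FPKM in IE and 859, 5354 and 4736 FPKM in RE. In these genes RE replicate 1 was the lowest library and IE replicate 2 the highest. RE replicate 1 was the lowest RE library in 24 of the 37 members and in 12 of the other 63. Another profile was seen in long members. TraesCS4D01G016100 (1827 bp) had 3460, 8827 and 2120 FPKM in IE and 6886, 5904 and 7540 FPKM in RE. Its neighbour TraesCS4D01G016000 (2182 bp) had 2918, 8330 and 2299 FPKM in IE and 5882, 4974 and 6375 FPKM in RE. In both, IE replicates 1 and 3 were below every RE library, and IE replicate 2 was above every RE library. Of the 17 members of at least 1000 bp, 11 were among the 37. The runs also went together in this respect, since 4 runs had every member among the 37, 7 had none and 2 were divided.

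**Figure D4:**
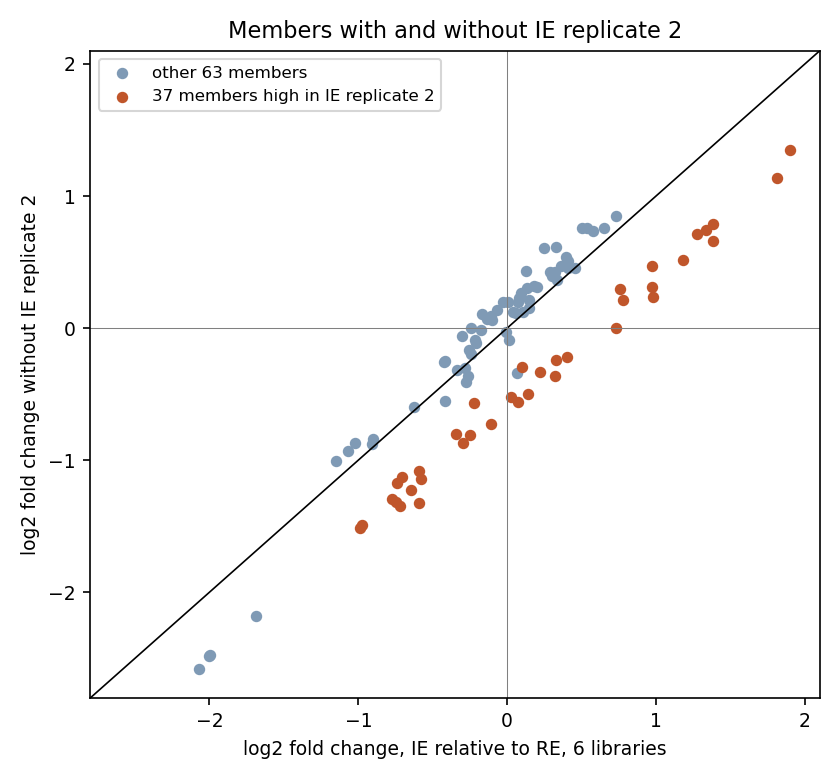
Log2 fold change of each member, IE relative to RE, with all 6 libraries (x axis) and without IE replicate 2 (y axis), with the line of equal values. The 37 members high in IE replicate 2 lie below the line, with a median of 0.10 with that library and -0.50 without it and shifts from -0.34 to -0.74 on the log2 scale. Their place below the line follows from how they were chosen and is not a result. The other 63 lie on both sides of the line, with shifts from -0.51 to 0.36 and medians of 0.01 and 0.11.

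No member was called different between IE and RE. IE and RE were compared with limma on log2(FPKM + 0.1), where a gene was called if it changed at least 2-fold with a p, adjusted by Benjamini and Hochberg, no larger than 0.05. Of the 51830 genes tested, 0 were called (0%), and the smallest adjusted p of a member in limma was 0.359. The fit of limma voom on fragments also called 0 genes. At an unadjusted p of at most 0.05, 10 members passed, 9 of them lower in IE, against 10% of all genes over both directions together. With a 2-fold limit as well, 1 member was higher in IE (1.64% of all genes) and 7 were lower in IE (4.11% of all genes). Over all genes, 850 were higher and 2130 lower in IE by these limits, or 1315 and 1869 when the libraries were scaled by the median ratio between them. With that scaling, 1 member was higher (2.54% of all genes) and 5 were lower (3.61%). So few members passed that no lean of the members in either direction was read from these shares. Log2 fold changes of the members were above 0 in 53 and below 0 in 47, with a median of 0.03, against a median of -0.12 over all genes tested. With median-ratio scaling, these medians were 0.16 and 0.01. Such scaling shifts the log2 fold changes of all genes by nearly the same amount, so it could hardly change the distance between the medians.

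Without IE replicate 2, limma still called 0 genes, with a smallest adjusted p of 0.0564 over all genes and 0.0653 over the members. At the unadjusted p and 2-fold limits, 0 members were then higher in IE (1.75% of all genes) and 16 were lower in IE (8.32% of all genes). Of the 16, 11 belonged to the 37 members high in IE replicate 2, and 11 were at least 1000 bp long. Because the 37 were set apart by the IE libraries themselves, their lower level in IE replicates 1 and 3 is a description. Their largest fold changes without IE replicate 2 were -1.51 for TraesCS5B01G434100 and -1.49 for TraesCS5D01G440000. All 3 pairs of long neighbours on group 4 were among the 16, namely TraesCS4A01G296000 with TraesCS4A01G296100, TraesCS4B01G017500 with TraesCS4B01G017600, and the pair on 4D described above. TraesCS3D01G467300 was also among them. It is an aspartic- or cysteine-type peptidase in the study, a class of enzymes that cleave proteins, and the only member with a function in the sources used here. The study lists this gene as higher in RE than in IE under high nitrogen, by a 2-fold change and a p not called adjusted. Its levels were 855, 2366 and 746 FPKM in IE and 1615, 1902 and 2455 FPKM in RE. The log2 fold change of the peptidase was -0.77 ± 0.47 (SE) in limma, with an unadjusted p of 0.138 and an adjusted p of 0.618. Without IE replicate 2 it was -1.30. IE replicates 1 and 3 were below all RE libraries, and IE replicate 2 was not.

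The lowest levels in IE relative to RE were those of 3 genes on the chromosomes of group 5. TraesCS5D01G431100 had 371, 539 and 93.1 FPKM in IE and 1247, 920 and 1210 FPKM in RE. TraesCS5B01G424800 had 447, 627 and 119 FPKM in IE and 1393, 1129 and 1370 FPKM in RE. TraesCS5A01G422900 had 404, 564 and 109 FPKM in IE and 1262, 979 and 1283 FPKM in RE. In each, all IE libraries were below all RE libraries and IE replicate 3 was the lowest library. Their log2 fold changes were -2.07 ± 0.60, -2.00 ± 0.57 and -2.00 ± 0.57 (SE), with adjusted p-values of 0.364, 0.363 and 0.363 in limma. Without IE replicate 3, these fold changes were -1.32, -1.29 and -1.29. TraesCS2D01G057000 had 1195, 2115 and 479 FPKM in IE and 2757, 3221 and 4565 FPKM in RE, a log2 fold change of -1.69 ± 0.54 (SE) with an adjusted p of 0.385 in limma. IE replicate 3 was the lowest library here too.

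On 7D, the run of TraesCS7D01G031700, TraesCS7D01G031800, TraesCS7D01G032000 and TraesCS7D01G032100 held members with unlike differences. TraesCS7D01G032000 had 931, 658 and 833 FPKM in IE and 1879, 1448 and 1741 FPKM in RE. TraesCS7D01G032100 had 1722, 1520 and 1518 FPKM in IE and 3349, 2681 and 2937 FPKM in RE. Neither gene overlapped between the regions, and the log2 fold changes were -1.07 ± 0.27 and -0.91 ± 0.27 (SE), with adjusted p-values of 0.359 and 0.364 in limma. TraesCS7D01G031700 had 2496, 1745 and 2470 FPKM in IE and 3025, 3040 and 2806 FPKM in RE, again without overlap. TraesCS7D01G031800, the most abundant of the run, had 12378, 7969 and 13204 FPKM in IE and 11140, 11892 and 10398 FPKM in RE, and its regions overlapped. Whether the genes of the run differ from each other in this respect was not tested.

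The run of 3 on 4A was lower in every IE than in every RE library in each of its genes. TraesCS4A01G453400 had 2845, 2281 and 2382 FPKM in IE and 4984, 4307 and 4685 FPKM in RE, a log2 fold change of -0.90 ± 0.29 (SE) with an adjusted p of 0.385 in limma. TraesCS4A01G453600 had 952, 721 and 931 FPKM in IE and 969, 986 and 1047 FPKM in RE. TraesCS4A01G453800 had 784, 552 and 788 FPKM in IE and 964, 936 and 915 FPKM in RE. In the first gene the gap between the regions, 1463 FPKM from the highest IE to the lowest RE library, exceeded the SD of 301 FPKM in IE. In the other 2 the gap was 17.1 and 127 FPKM, below the SD of 128 and 135 FPKM in IE. On 7A, TraesCS7A01G035500 had 1388, 939 and 1196 FPKM in IE and 2670, 2021 and 2413 FPKM in RE, a log2 fold change of -1.02 ± 0.28 (SE) with an adjusted p of 0.363 in limma. TraesCS7A01G070900 had 1498, 714 and 613 FPKM in IE and 1932, 2248 and 1644 FPKM in RE, a log2 fold change of -1.15 ± 0.38 (SE) with an adjusted p of 0.402 in limma. Both were without overlap, the latter by a small gap between IE replicate 1 and RE replicate 3.

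Over all members, 13 were lower in every IE than in every RE library, against 11.9% of all genes tested, and 10 were higher in every IE library, against 4.35%. The count of lower members was close to the background and that of higher members was above it. When each library was rescaled to sum to 1000000, only 4 members were higher in every IE library (3.66% of all genes) and 13 were lower (13.8%). With median-ratio scaling, 11 were higher (6.90%) and 8 were lower (8.55%). Without IE replicate 2, the counts were 33 lower (27.1% of all genes) and 28 higher (9.15% of all genes), 26 of the latter outside the 37 members high in IE replicate 2.

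The 10 members higher in every IE library had log2 fold changes from 0.11 to 1.18, and the 13 lower ones from -0.22 to -2.07. TraesCS2D01G515500 had 1577, 6368 and 1635 FPKM in IE and 622, 1536 and 1484 FPKM in RE, a log2 fold change of 1.18 ± 0.62 (SE) with an adjusted p of 0.570 in limma. Without IE replicate 2 the fold change was 0.52, and IE replicates 1 and 3 lay just above the RE libraries. TraesCS3D01G524700 had 1110, 4872 and 1398 FPKM in IE and 876, 1055 and 1089 FPKM in RE, with a log2 fold change of 0.97 and of 0.31 without IE replicate 2. Both belonged to the 37 members high in that library, and the other 8 did not. TraesCS7D01G411700 had 2686, 2387 and 3454 FPKM in IE and 2258, 1544 and 1390 FPKM in RE, a log2 fold change of 0.73 ± 0.32 (SE) with an adjusted p of 0.505 in limma. TraesCS2A01G290800 had 3044, 2003 and 2504 FPKM in IE and 1364, 1695 and 1981 FPKM in RE, a log2 fold change of 0.58 ± 0.30 (SE) with an adjusted p of 0.570 in limma. Neither difference passed the limits with or without IE replicate 2.

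Among the genes of 264 bp on group 7, TraesCS7D01G199700 had 1054, 1015 and 974 FPKM in IE and 831, 610 and 796 FPKM in RE. TraesCS7B01G103600 had 1506, 1381 and 1536 FPKM in IE and 1258, 941 and 1153 FPKM in RE. TraesCS7A01G238600 had 2503, 2000 and 2517 FPKM in IE and 2197, 1514 and 1791 FPKM in RE. The genes on 7B and 7D did not overlap between the regions and that on 7A did, while their log2 fold changes were alike in size at 0.41, 0.46 and 0.36. The remaining members without overlap and higher in IE were TraesCS7A01G229400 (0.41), TraesCS5A01G134000 (0.30), TraesCS2B01G402500 (0.14) and the leading gene TraesCS5D01G004100 (0.11 ± 0.42, adjusted p of 0.95 in limma). The only member past the unadjusted limits in the higher direction, TraesCS2A01G513900, had 748, 3513 and 996 FPKM in IE and 142, 782 and 545 FPKM in RE. Its regions overlapped, its log2 fold change was 1.81 ± 0.76 (SE) with an unadjusted p of 0.0463 in limma, and it no longer passed without IE replicate 2, IE replicate 3, RE replicate 1 or RE replicate 3.

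**Figure D5:**
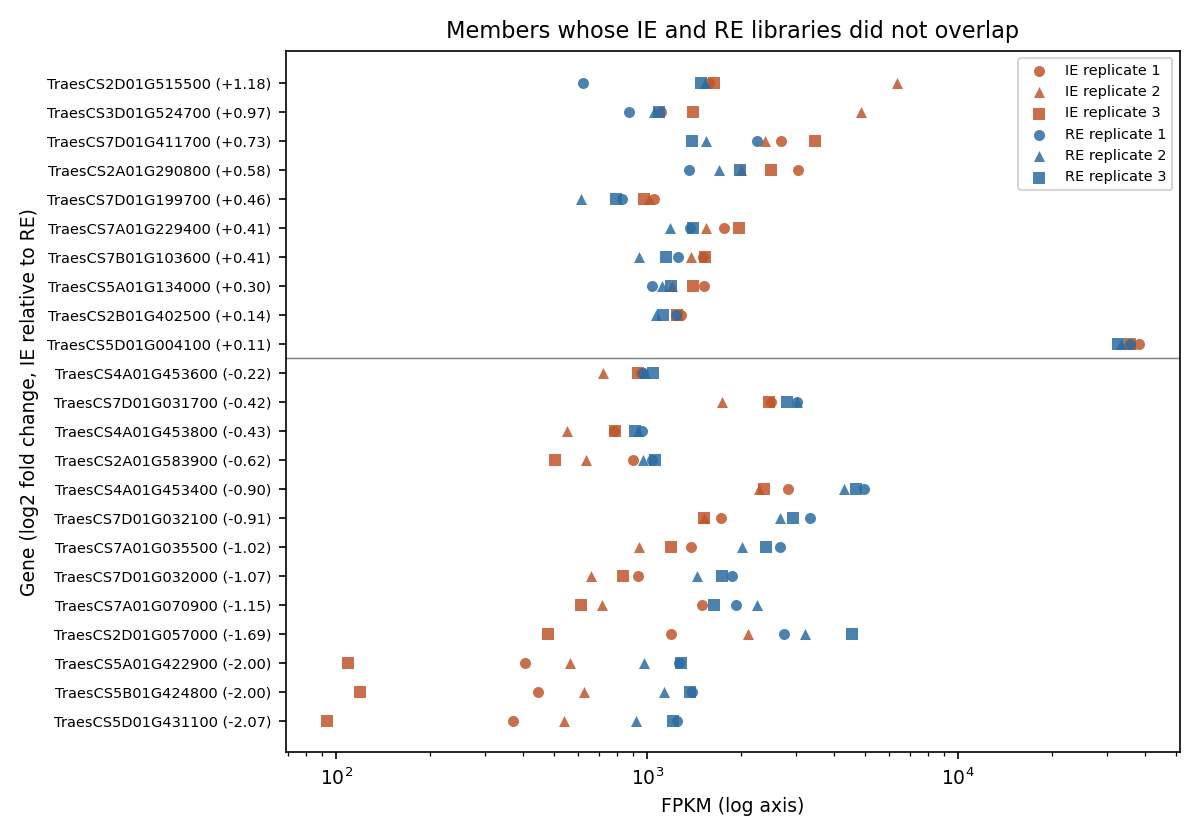
FPKM (log axis) in the 6 libraries for the 23 members whose IE and RE libraries did not overlap, ordered by log2 fold change, which stands beside each identifier. The 13 genes under the line were lower and the 10 genes over it higher in every IE library, and the 3 genes of group 5 at the bottom reach their lowest level, 93.1 to 119 FPKM, in IE replicate 3.

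Among the 20 most abundant members, the regions overlapped in 19, and 15 had a log2 fold change under 0.5 in size. The 5 with larger changes were those high in IE replicate 2, whose range ran from 1.90 for TraesCS4D01G142000 to -0.75 for TraesCS4D01G016100. Single libraries moved both values, the former to 0.87 without RE replicate 1, and the latter to -1.32 without IE replicate 2 and -0.29 without IE replicate 3. Outside these, the changes of the 20 ran from -0.30 for TraesCS4B01G328000 to 0.40 for TraesCS3B01G111200. The latter had 6521, 4873 and 6654 FPKM in IE and 5721, 3972 and 4091 FPKM in RE, and only IE replicate 2 fell within the range of RE. The spread within IE was wider than within RE over the members, with a median SD of 0.458 against 0.222 on the log2 scale, and over all genes tested, with 0.405 against 0.304. In the 63 members not high in IE replicate 2 it was 0.292 in IE and 0.168 in RE.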

How the data were processed

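RNA of 3 IE and 3 RE samples was sequenced. Per the paper and labels, the authors cleaned the reads with fastp and aligned them to Chinese Spring with HISAT2, and they deposited 1 FPKM value for each gene in each library. The counting tool and its treatment of reads that match several genes are not given in the sources used here. Whole fragments, gene lengths and library totals were recovered from the FPKM steps in 100% of the 86042 genes with a value, and the recovery was tested on simulated data. No column of the table was unmapped.

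The test between regions was that of limma 3.58.1 (R 4.3.3, trended eBayes, Benjamini-Hochberg) on log2(FPKM + 0.1), a scale that understates the change of low genes. It ran over genes whose mean reached 0.5 FPKM. Single values were compared by exact permutation over all divisions of the libraries, written in Python. Tables and plots used pandas 2.3.3, numpy 2.4.6 and matplotlib 3.10.9 under Python 3.11.15. In all, 16 alternatives of the fit were run.

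The members and lists were chosen with earlier results of these data known. Genes named were the 20 most abundant members, the 8 largest changes per direction among members without overlap, members with a function in the study, runs of at least 3, and 5 genes on either side of the limit. Others named were chosen after their values were seen. Of the identifiers, 0 matched the table of gene symbols used here (assembly IWGSC CS RefSeq v2.1), so chromosomes come from the identifiers and no coordinates or sequences are given.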

Additional observations from a re-analysis of the deposited data

How the results depend on the processing

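No gene and no member was called in any of the 16 alternatives of the limma fit. Members past the unadjusted p and 2-fold limits, 1 higher and 7 lower in IE, became 0 higher with no filter, with each library rescaled to 1000000, and with no variance trend. Leaving out a library gave 0 to 5 higher (1.41% to 2.16% of all genes) and 5 to 16 lower (2.69% to 8.32%). The 5 higher came without IE replicate 1 (1.95%) and the 16 lower without IE replicate 2 (8.32%). The 2980 genes past these limits became 1437 with a pseudocount of 1, 4821 with no filter, and 2122 to 5222 when a library was left out. Members without overlap became 4 higher after rescaling to 1000000 (3.66% of all genes) and 8 lower with median-ratio scaling (8.55%). Leaving out a library gave 10 to 28 higher and 13 to 33 lower. With fewer libraries, a lack of overlap is easier for every gene. The largest counts, 28 higher (9.15% of all genes) and 33 lower (27.1%), came without IE replicate 2. Without IE replicate 1 and RE replicate 1 there were 19 and 16 higher. Among left-out libraries, the share of all genes was worked out only for IE replicate 2. The other counts are therefore not read as results about the members. The median log2 fold change of the members ran from -0.02 to 0.16 over the alternatives. The difference in member share ran from -0.156 to 2.68 percentage points when a library was left out. The log2 ratio to groups 1 and 6 was -0.0224 in fragments and ran from -0.22 to 0.23 when a library was left out, and that to unplaced genes ran from -0.39 to 0.19. Of the 44 named members, between 0 and 4 changed sign in an alternative, and none of the 20 that differed by 0.5 or more on the log2 scale did. Many of the 20 had no overlap between the regions, so leaving out a library could not change their sign. Over all members, the sign changed without IE replicate 2 in 8 of the 37 high in that library and in 9 of the other 63. The causes of these shifts were not tested.

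The labels do not say whether IE and RE libraries with the same replicate number came from the same grains or plots. Deviations of libraries with the same number from the means of their regions correlated at 0.11, 0.06 and -0.20 across genes. Libraries with unlike numbers correlated at between -0.243 and 0.255. With 3 libraries per region, such values cannot decide whether the libraries were paired. With a replicate block, 7 members were higher (2.39% of all genes) and 7 lower (4.09%) past the unadjusted limits, and 0 were called.

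Each member had at least 315 fragments in every library. What limited the calls was not tested, and 0 genes were called without IE replicate 2 as well. The labels number the libraries as replicates of each region and give no nitrogen level, so no effect of nitrogen was tested.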
